A study of Mus musculus with 8 samples.

Results

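The integrated stress response core comprised 10 genes, chosen by name as its regulators and targets: Atf4, Atf5, Ddit3, Cebpb, Trib3, Ppp1r15a, Asns, Chac1, Sesn2 and Ddit4. All 10 were rows of a table of 16279 genes measured in input RNA, and 5 of them carried peaks in a list of 2114 differential N6-methyladenosine (m6A) peaks. The cells were N2a, a mouse neuroblastoma line grown in serum-containing medium. They were transfected with a small interfering RNA (siRNA) against Emg1 or with siControl and collected after 48 h. Emg1 encodes a methyltransferase of the small ribosomal subunit RNA, and the series asks whether EMG1 influences m6A in mRNA without using its enzyme activity. Poly(A) RNA was sequenced as input and after m6A immunoprecipitation (IP), which gave 4 groups of 2 libraries: knockdown input, control input, knockdown IP and control IP. The labels name no second siRNA and no rescue, do not describe the siControl sequence, and leave unsaid whether a group's 2 libraries are separate cultures, so the p-values may measure technical spread only.

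The files give no value per library, so each gene is described by the authors' mean normalized count, its log2 fold change (knockdown over control) and the standard error (SE) of that change, as deposited by the authors. The depth of the libraries is unknown. The file names no direction for the change, and it was read from Emg1, which stood at -1.73 ± 0.11 (log2, SE), or 30.2% of control, in the authors' deposited table. A gene is called changed when the authors' adjusted p was under 0.05. The 7 neuroblastoma markers followed had means between 291 and 13352, and of these 5 rose and 1 fell, from Stmn2 at -0.65 ± 0.06 to Phox2a at 0.59 ± 0.07 in the authors' deposited table. Ptprc and Lyz2 (leukocytes), Col1a2, Col3a1 and Lum (fibroblasts) and Kdr (endothelium) had no row. Of the markers of other cell types 2 passed in the authors' deposited table, Pdgfrb at -0.98 ± 0.19 and Cd74 at -0.74 ± 0.12, and the part of any of these markers in the results was not tested.

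The integrated stress response starts with kinases that sense amino acid shortage, endoplasmic reticulum stress, haem shortage or double-stranded RNA and phosphorylate the translation initiation factor eIF2. General initiation then falls, while the Atf4 mRNA, which has short upstream reading frames, is translated more. ATF4 pairs with C/EBP proteins on composite DNA elements and switches on genes of amino acid supply, redox balance and cell death, among them genes that feed back on the response itself. Since much of this control acts on translation and on protein stability, RNA levels show only a part of it.

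The promoter stretches of 3 members show the kind of element meant. The composite element was searched as TGATGNAA, a cAMP response element core as TGACGT and the distal part of the endoplasmic reticulum stress element as CCACG, on both strands of the RefSeq windows (GRCm38.p6) from 250 bases before to 50 bases after each gene start. The stretches below are given in the direction of the gene, and bases are counted back from the start. Capitals mark the composite element in Asns and Chac1 and the cAMP response element in Ppp1r15a. A CCACG match in each of the Asns and Chac1 stretches is left in lower case. That of Asns (chr6:7693210-7693289, minus strand) covers bases -80 to -1, that of Chac1 (chr2:119351013-119351092, plus strand) bases -229 to -150, and that of Ppp1r15a (chr7:45526269-45526348, minus strand) bases -80 to -1. Asns and Chac1 are shown as members whose RNA fell and whose upstream sequence holds the composite element. Ppp1r15a is shown as a member that did not pass, with a cAMP response element that reads the same on both strands. The windows of Atf4, Atf5, Ddit3, Sesn2 and Ddit4, which also fell, held no composite element. A link between the element and the falls was not tested.
Asns: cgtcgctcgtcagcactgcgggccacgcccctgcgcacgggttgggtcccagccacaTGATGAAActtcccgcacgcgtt
Chac1: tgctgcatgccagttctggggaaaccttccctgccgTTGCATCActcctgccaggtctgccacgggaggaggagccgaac
Ppp1r15a: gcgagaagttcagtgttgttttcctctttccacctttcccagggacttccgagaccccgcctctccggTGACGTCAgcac

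In all, TGATGNAA lay in 3 of the 11 promoter windows of the 10 members, against 3.97% of all 32851 RefSeq windows and 2.26% of the 12301 windows of genes with an adjusted p. The matches were at bases -23 to -16 of Asns, on the opposite strand at -193 to -186 of Chac1, and on the opposite strand at 15 to 22 of Trib3, which is after the gene start. The TGACGT core was found in 1 member, Ppp1r15a, against 7.51% of all windows and 11.7% of those of genes with an adjusted p. The CCACG element lay in 8 of the 11 windows, where 32.8% of all windows and 47.2% of those of genes with an adjusted p hold it. A match is a description of these letters and not of binding.

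Most core genes fell in input RNA after Emg1 knockdown. Of the 10 members, 8 fell and 0 rose in the authors' deposited table, by DESeq2's adjusted p. For comparison, 15.5% of the 12807 genes with an adjusted p fell and 17.1% rose. At an unadjusted p under 0.05 the counts among the members were also 8 and 0. The median log2 fold change of the 10 was -0.46, against 0.00 over all genes with an adjusted p. The falls were moderate in size: the 8 genes stood between 56.6% and 83.8% of control. Ppp1r15a and Cebpb were the members that did not pass.

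**Figure D1:**
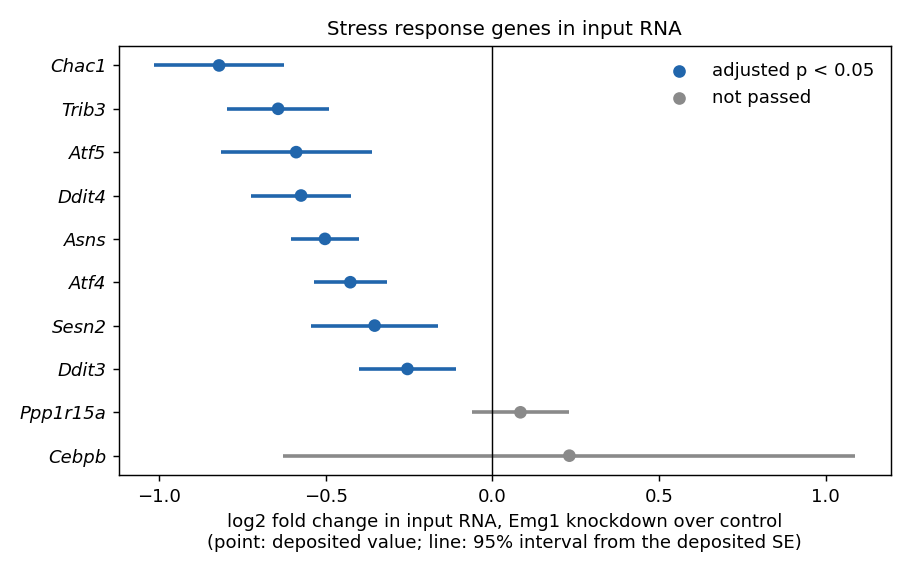
Log2 fold change in input RNA (horizontal axis, knockdown over control) of the 10 core genes, with points for the deposited values and lines for 95% intervals from the deposited SE. The intervals of the 8 genes in blue lie below 0, while that of Ppp1r15a crosses 0 closely and that of Cebpb spans -0.63 to 1.09.

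Among the transcription factors, Atf4, the central activator of the response, stood in the authors' deposited table at -0.43 ± 0.06 (log2, SE) and an adjusted p of 8.73e-13, which is 74.4% of control (95% interval 69.0 to 80.3). Atf5, an ATF4 relative that is also controlled by upstream reading frames and acts in the mitochondrial stress response, stood at -0.59 ± 0.12, or 66.5% of control, again in the authors' deposited table (adjusted p = 4.44e-06). Ddit3, which encodes the pro-apoptotic factor CHOP, showed the smallest of the 8 falls, -0.26 ± 0.07 or 83.8% of control (adjusted p = 0.00303 in the authors' deposited table). The intervals of these 3 genes overlapped in every pair, those of Atf4 and Ddit3 between -0.40 and -0.32, and the differences between them were not tested.

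Cebpb, a C/EBP factor that can pair with ATF4 and CHOP, could not be placed. Its change in the authors' deposited table was 0.23 ± 0.44, which allows anything from 64.7% to 213% of control (adjusted p = 0.741). The SE was 2.38 times the median SE of the 200 genes nearest to it in mean count, and all 200 had a smaller one. Its mean of 336 was the lowest of the 10, and genes near that mean had a median SE of 0.18. The other 9 members had an SE between 0.98 and 1.15 times that of their neighbours. For Cebpb, neither a fall like that of its partners nor a rise of the same size was detectable or excluded at this error.

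**Figure D2:**
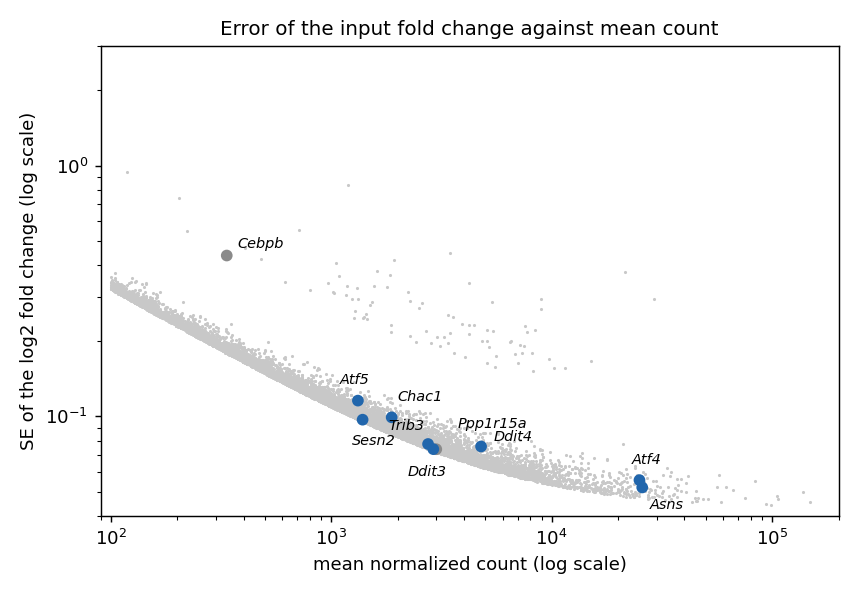
SE of the log2 fold change (vertical log axis) against mean normalized count (horizontal log axis) for the genes with a mean of at least 100 in grey and the 10 core genes in colour, blue where the adjusted p was under 0.05. Cebpb, at an SE of 0.44, lies above the band in which the other 9 sit.

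Of the feedback genes 1 fell and 1 did not pass. Trib3, a pseudokinase that binds ATF4 and dampens it, fell by 0.64 ± 0.08 in the authors' deposited table (adjusted p = 7.11e-15), to 64.0% of control (57.6 to 71.1). Ppp1r15a encodes GADD34, the inducible subunit that brings protein phosphatase 1 to eIF2 and ends the response. It stood at 0.08 ± 0.07 in the authors' deposited table (adjusted p = 0.419), with an interval from 95.9% to 117% of control. That interval does not overlap those of the 8 genes that fell.

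The metabolic targets held the largest fall and the smallest adjusted p of the 10. Chac1, an enzyme that degrades glutathione and an ATF4 target, fell by 0.82 ± 0.10 in the authors' deposited table (adjusted p = 7.8e-15), to 56.6% of control (49.5 to 64.8). It was the 212th lowest change among 11134 genes with a mean of at least 100. Asns, which makes asparagine from aspartate and glutamine, stood at -0.50 ± 0.05, or 70.6% of control. Its adjusted p of 5.28e-20 was the 122nd smallest of the authors' deposited table. The intervals of Chac1 and Asns do not overlap, although the errors of both genes come from the same libraries and no test of the difference was made.

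Both inhibitors of mTORC1, the kinase complex that couples nutrients to growth, were lower. Ddit4 (REDD1), which acts through the TSC complex and also answers to hypoxia and glucocorticoids, fell by 0.57 ± 0.08 to 67.2% of control (adjusted p = 1.64e-12 in the authors' deposited table). Sesn2, a leucine sensor that restrains GATOR2, fell by 0.35 ± 0.10 to 78.3% of control (adjusted p = 0.00161 in the authors' deposited table). Ordered by change, the members ran Chac1, Trib3, Atf5, Ddit4, Asns, Atf4, Sesn2, Ddit3, Ppp1r15a and Cebpb. In this order each gene's interval overlapped that of the next, except between Ddit3 and Ppp1r15a.

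A stricter question is which members changed by more than 0.25 on the log2 scale. A Wald test against that limit was made from the deposited values and SE, with Benjamini-Hochberg adjustment over the 12807 genes with an adjusted p. In this test 5 of the 10 passed: Chac1 (adjusted p = 6.54e-07), Trib3 (2.18e-05), Asns (6.12e-05), Ddit4 (0.000719) and Atf4 (0.0297). Over all genes with an adjusted p, 3.24% fell beyond this limit. Atf5 narrowly missed it (0.0569), because its larger fall has a larger SE than that of Atf4, and Sesn2 and Ddit3 did not pass.

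In the RefSeq annotation 3 members overlap other genes. Ddit3 (chr10:127290793-127296291) overlaps Mars1 and Mbd6, Atf5 (chr7:44812256-44816658) overlaps Nup62 and Il4i1b, and Ppp1r15a (chr7:45522917-45526268) overlaps Tulp2. The library kit keeps strand, but the sources used here do not say whether the counting used it, so the values of these 3 members are uncertain. In the authors' deposited table Nup62 stood at 0.13 ± 0.07, Mars at 0.07 ± 0.05, Tulp2 at -0.24 ± 0.29 and Mbd6 at 0.25 ± 0.10. Of these 4 genes only Mbd6 passed (adjusted p = 0.0378), and it rose, while Ddit3 fell.

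Around the core, 10 lists of pathway genes were followed, of which 122 of 128 genes had an adjusted p. Of the 122, 47 fell and 17 rose in the authors' deposited table. Of all 12807 genes with an adjusted p, 15.5% fell and 17.1% rose. The counts of each list below stand beside these same shares. Amino acid synthesis genes fell almost throughout, while the eIF2 machinery, the transporters and the tRNA synthetases held calls in both directions. Differences between lists were not tested.

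**Figure D3:**
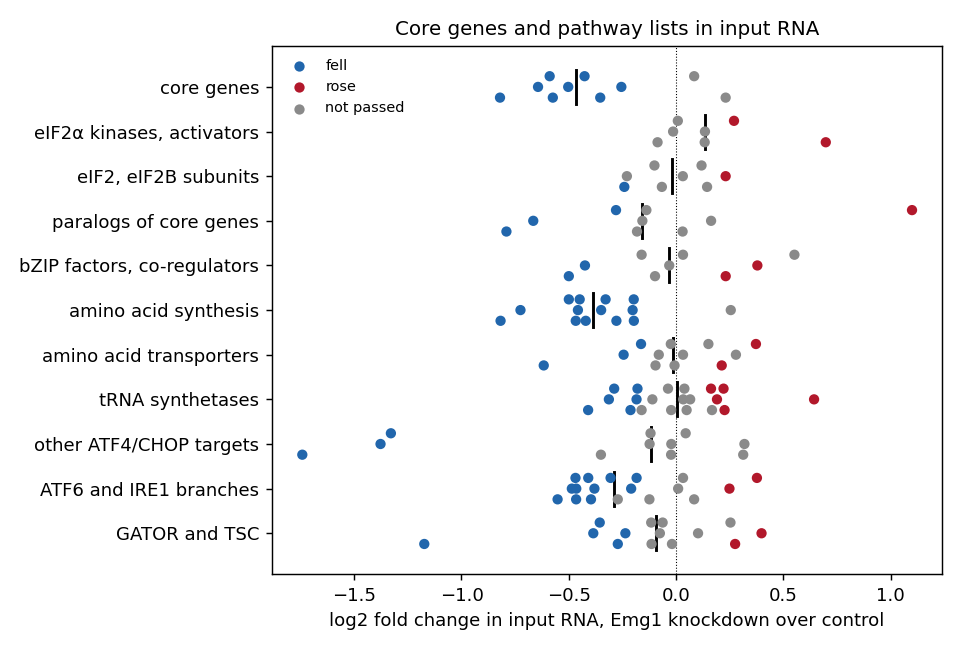
Log2 fold change in input RNA (horizontal axis, knockdown over control) of each gene with an adjusted p in the core and the 10 pathway lists, with a vertical bar for the median of a list. The core genes and the amino acid synthesis genes lie mostly below 0 (medians -0.46 and -0.39), while the tRNA synthetases lie on both sides (median 0.00).

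Upstream of Atf4, no kinase gene passed the test as lower. Of 7 genes of eIF2 kinases and of proteins that act on them, 2 rose and 0 fell (also 0 at an unadjusted p under 0.05), with a median of 0.13. Gcn1l1, the ribosome-bound activator of the amino acid sensor kinase GCN2, rose by 0.70 ± 0.07, and Eif2ak1, the haem-regulated kinase HRI, by 0.27 ± 0.09 in the authors' deposited table. Eif2ak3 (PERK) did not pass at 0.13 ± 0.10, nor did Eif2ak4 (GCN2) at 0.01 ± 0.11 in the authors' deposited table; both were named after their values were seen. Of the 8 genes of eIF2 and of its exchange factor eIF2B, 1 fell and 1 rose: Eif2s2, the beta subunit of eIF2, stood at -0.24 ± 0.06, and the eIF2B subunit gene Eif2b4 at 0.23 ± 0.08 in the authors' deposited table. The kinases act through phosphorylation, which these RNA data do not show.

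Close relatives of the core genes held calls in both directions. Of 9 measured paralogs 3 fell, 1 rose and 5 did not pass, with a median of -0.16. For comparison, 15.5% of all genes with an adjusted p fell and 17.1% rose. Chac2, the other glutathione-degrading enzyme of its family, and Sesn3 were at -0.79 ± 0.17 and -0.67 ± 0.16 in the authors' deposited table. In the authors' deposited table Cebpg, a dimer partner of ATF4, fell by 0.28 ± 0.08. The gene that rose was Cebpd at 1.10 ± 0.43 with a mean of only 72.0 (adjusted p = 0.0354 in the authors' deposited table), named after its values were seen. Ppp1r15b, the constitutive counterpart of Ppp1r15a and likewise named after the fact, stood at 0.03 ± 0.07 in the authors' deposited table, so neither eIF2 phosphatase adaptor passed.

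Of 9 other bZIP factors and co-regulators 2 fell and 2 rose, where 15.5% and 17.1% of all genes with an adjusted p did so. Nupr1, a stress-induced ATF4 target and cofactor, was lower at -0.50 ± 0.11 and Jdp2, a repressor of AP-1 sites, at -0.42 ± 0.14, while Jun, a subunit of AP-1, was higher at 0.38 ± 0.10 in the authors' deposited table. The other gene that rose was Nfe2l2 (NRF2) at 0.23 ± 0.09 in the authors' deposited table, named after its values were seen.

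The enzymes of amino acid and one-carbon synthesis held the highest share of falls among the 10 lists: 13 of 14 fell and 0 rose by the adjusted p, with a median of -0.39, and at an unadjusted p under 0.05 the counts were 13 and 1. Pck2, the mitochondrial phosphoenolpyruvate carboxykinase, fell by 0.73 ± 0.08 in the authors' deposited table. Psat1 and Phgdh, enzymes of serine synthesis, were at -0.42 ± 0.05 and -0.46 ± 0.06 in the authors' deposited table. The exception was Cbs, which makes cystathionine from serine and homocysteine, at 0.25 ± 0.11 with an adjusted p of 0.0533 in the authors' deposited table. The 13 falls ran from -0.82 ± 0.12 for Cth, which makes cysteine from cystathionine, to -0.20 ± 0.05 for Mthfd2, a mitochondrial folate enzyme, in the authors' deposited table, both named after their values were seen.

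Transporters and tRNA synthetases, which are also described ATF4 targets, held falls and rises alike. Of 12 amino acid transporter genes 3 fell, 2 rose and 7 did not pass (median -0.02). Slc7a3, a cationic amino acid transporter, was lower at -0.62 ± 0.09 and Slc1a4, a neutral amino acid transporter, at -0.24 ± 0.07, while Slc7a1, another cationic transporter, was higher at 0.21 ± 0.06 in the authors' deposited table. Of 20 cytosolic tRNA synthetase genes 6 fell and 5 rose (median 0.00). Sars and Gars, the seryl and glycyl enzymes, were at -0.41 ± 0.05 and -0.31 ± 0.06, and Vars, the valyl enzyme, rose by 0.64 ± 0.06 in the authors' deposited table.

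Among 11 other described targets of ATF4 or CHOP, 3 fell and 0 rose, and the 3 values were lower than that of any core gene. At an unadjusted p under 0.05 the counts were 4 and 0. Eif4ebp1, the repressor of eIF4E, was at -1.74 ± 0.07 and Ero1l, an oxidase of the endoplasmic reticulum, at -1.33 ± 0.07, while Ndrg1 was at -1.38 ± 0.34 with a mean of 129 in the authors' deposited table. The remaining 8 did not pass. In the authors' deposited table they ran from Adm2 at -0.35 ± 0.19 to the secreted stress factor gene Gdf15 at 0.32 ± 0.34. The pro-apoptotic gene Bbc3 stood at 0.31 ± 0.26 in the authors' deposited table. Adm2 and Bbc3 were named after their values were seen.

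The other branches of the endoplasmic reticulum response held more falls than rises. Of 18 genes of the ATF6 and IRE1 branches 11 fell and 2 rose, with a median of -0.29. Pdia6, a disulfide isomerase, was at -0.47 ± 0.05, the chaperone gene Hspa5 at -0.40 ± 0.06 and the transcription factor gene Xbp1 at -0.47 ± 0.07 in the authors' deposited table. The 2 that rose were the chaperone gene Hyou1 at 0.25 ± 0.05 and the ubiquitin ligase gene Syvn1 at 0.38 ± 0.11 in the authors' deposited table, both named after their values were seen. Of 14 genes of GATOR, TSC, the Castor sensors and Rheb, called the GATOR and TSC list below, 5 fell and 2 rose (median -0.10). The 5 that fell included Rheb and the Castor genes Gatsl3 and Gatsl2, which are not GATOR or TSC subunits. Depdc5, a GATOR1 subunit, rose by 0.40 ± 0.08, the GATOR2 subunit gene Mios was at -0.39 ± 0.10, and Gatsl3, the arginine sensor gene also called Castor1, at -1.17 ± 0.30 with a mean of 132 in the authors' deposited table.

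Differential m6A peaks were listed on 5 of the 10 members, Chac1, Cebpb, Trib3, Ddit3 and Atf4, against 14.8% of genes with an adjusted p. Among the 9453 genes with a mean at or above the lowest of the 10 members, 19.3% carried one. That lowest mean is that of Cebpb, and the 9453 genes were not matched to the other members in mean. The 19.3% is therefore not a like-for-like share. The list gives for each peak a fold enrichment of IP over input and a log2 change between conditions, both the authors' own values. Nothing in the file names the numerator of that change. Signs are therefore given as deposited, and a sign is no gain or loss after knockdown. Only differential peaks were analysed here, so a member without one may still be methylated. No peak on Atf5, Ppp1r15a, Asns, Sesn2 or Ddit4 was listed.

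Chac1 carried 2 peaks of opposite sign. The first, of 119 bases, began at the first base of the RefSeq gene (mm10 chr2:119351242-119351360) and had a change of -3.44 at a fold enrichment of 4.61 in the authors' deposited table (false discovery rate 2.34e-05). It was the 15th lowest change of the 2114. The second, of 1037 bases, lay towards the end of the gene (chr2:119353202-119354238), with a small positive change of 0.37 at a fold enrichment of 15.3 in the authors' deposited table (false discovery rate 1.23e-09). Of the 183 genes with 2 or more peaks, 37 had peaks of both signs. Chac1 was the only member among them.

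On Cebpb, an intronless gene of 1518 bases, a peak of 328 bases near the middle (chr2:167689599-167689926) had a change of -2.79, the 26th lowest, at a fold enrichment of 3.51 in the authors' deposited table. Its false discovery rate was 2.51e-25, far smaller than that of the first Chac1 peak. This is the member whose input change had the widest error, and the sources used here do not say whether the peak change draws on the same input libraries.

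The remaining 3 peaks were small changes near the gene ends. Trib3 had a positive change of 0.40 in a peak of 1071 bases that reached the last base of the gene (chr2:152337425-152338495, minus strand), at a fold enrichment of 14.0 in the authors' deposited table. Ddit3 had a change of -0.52 in a peak of 436 bases that stopped 3 bases before the gene end (chr10:127295853-127296288), at a fold enrichment of 4.47 in the authors' deposited table. For Atf4 the change was -0.31 in a peak of 239 bases (chr15:80257247-80257485) at a fold enrichment of only 1.37, a value that 96.5% of the listed peaks exceeded in the authors' deposited table. The Atf4 peak was thus among the least enriched of the list, with a false discovery rate of 2e-27 at a mean input count of 25011.

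**Figure D4:**
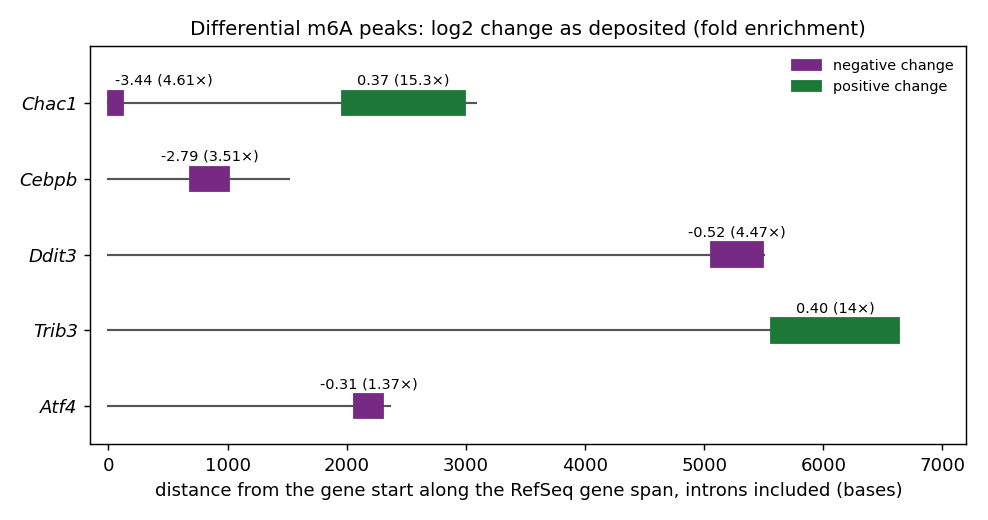
Differential m6A peaks (boxes, to scale) along the 5 core genes that carry one, in bases from the RefSeq gene start (horizontal axis, introns included), with the log2 change as deposited and the fold enrichment above each box. Chac1 has a negative-change peak at its start and a positive-change peak near its end, and the peaks of Ddit3, Trib3 and Atf4 lie at the gene ends.

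Of these 6 peaks 4 had a negative and 2 a positive change, where 53.1% of all listed peaks were negative. All 6 were single blocks, as were 50.6% of the list. Position and sign went together across the list: 136 of 158 peaks with a midpoint in the first 10% of the gene span were negative (86.1%, median change of the negative ones -1.27), against 35.6% of 731 peaks in the last 10%. The first Chac1 peak, at 1.91% of the span, is thus one of many negative changes at gene starts, and its size exceeded their median. Of the peaks in the last 10%, that of Trib3 had the more common sign, and those of Atf4 and Ddit3 did not.

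Of the 5 members with a peak, Atf4, Ddit3, Trib3 and Chac1 fell in input and Cebpb did not pass. On the 4 that fell, the peaks were negative on Atf4 and Ddit3, positive on Trib3 and of both signs on Chac1. Over all genes with an adjusted p, 12.5% of 973 genes with only negative-change peaks fell in input, against 24.5% of 887 with only positive-change peaks. The share of all genes with an adjusted p that fell was 15.5%. Whether the peak change and the input change draw on the same input libraries is unknown, and a link between them was not tested.

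In the pathway lists, 35 of the 125 genes with a row carried 40 peaks, 25 negative and 15 positive. Of all genes with an adjusted p, 14.8% carried a differential peak. The share was 19.3% among the 9453 genes with a mean at or above the lowest of the 10 members. The pathway genes were not matched to these genes in mean. The signs are given by list, several of which hold only 2 or 3 peaks, and differences between lists were not tested. The peaks on amino acid synthesis genes (2 of 2), on paralogs (2 of 2), on GATOR and TSC genes (3 of 3) and on genes of the ATF6 and IRE1 branches (4 of 5) were positive. The exception in the last list was Hsp90b1, an endoplasmic reticulum chaperone gene, at -1.03 and a fold enrichment of 1.30, while Ern1, which encodes IRE1, had a change of 0.87 at 9.92 in the authors' deposited table. Of the amino acid synthesis genes, Pck2 and Cbs had changes of 0.39 and 0.63 in the authors' deposited table, Pck2 having fallen in input and Cbs not having passed.

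Negative changes held for all 10 peaks on tRNA synthetase genes and all 5 on the other ATF4 or CHOP targets, and for 4 of 5 on bZIP factors and 3 of 4 on eIF2 and eIF2B genes. The amino acid transporter genes had 2 negative and 2 positive peaks. Jund, an AP-1 subunit gene, had a change of -1.54 at a fold enrichment of 19.2 and Nupr1 one of -0.82 at 6.27 in the authors' deposited table. Vegfa, the angiogenic growth factor gene, and Gdf15 had changes of -0.87 and -0.97 in the authors' deposited table. Eif2b2, a subunit gene of eIF2B, was at -1.41 in a peak near its start, and Eif2s2 at -0.69 in the authors' deposited table.

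Eif4ebp1, whose peaks were named after their values were seen, also had a negative-change peak near its start, a peak of 120 bases at 0.97% of the span with a change of -2.55 (chr8:27260416-27260535, fold enrichment 1.66) in the authors' deposited table. Its other peak, at the gene end, was also negative, at -0.21, where that of Chac1 was positive. Ppp1r15b and Chac2, the paralogs with a peak, had positive changes of 0.38 and 0.60 at fold enrichments of 33.7 and 26.6 in the authors' deposited table. The peaks on Chac2 and at the end of Chac1 thus had the same sign, on 2 genes whose input RNA fell.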

How the data were processed

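RNA and m6A were measured in 8 libraries, 2 in each of 4 groups. Trimmomatic, HISAT2 and DESeq2 were used with mm10, per the submitters' processing notes; read counter, annotation, peak caller and versions: not given in the sources used here. Mean normalized counts (a signal over the fitted libraries), log2 fold changes with SE, Wald scores and p-values were deposited by the authors as DESeq2 results for 16279 genes, 12807 with an adjusted p. The peak list deposited by the authors gives fold enrichment as a ratio, the log2 change, and scores that are log10 of the false discovery rate (largest 0.0282). Neither table holds values per library, so no count model was refitted.

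The members and lists were chosen with earlier results of these data known. In the main results p-values are adjusted over all genes with an adjusted p, and not within the lists. Intervals are the deposited change ± the normal 95% quantile times SE. Of the 128 listed pathway genes, 4 were matched by older RefSeq symbols. Other thresholds, adjustments, centring and a null of 0.25 were tried and the calls tested on simulated data. Named genes were all members, Emg1, the 3 smallest adjusted p of each list among those that passed (2 where fewer passed), every peak on a member and some pathway peaks. Promoters came from RefSeq (GRCm38.p6), which matched all 10 members. Scripts ran under Python 3.11.15 with pandas 2.3.3, numpy 2.4.6, matplotlib 3.10.9 and scipy 1.17.1.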

Additional observations from a re-analysis of the deposited data

How the results depend on the processing

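The falls of all 8 called members kept their direction and their call at adjusted p thresholds of 0.01 and 0.1, with Benjamini-Hochberg adjustment over all genes, with a minimum mean of 100 and after centring on the median of genes with such a mean (0.01). Under Holm adjustment 6 members were called, without Ddit3 and Sesn2, and against a null of 0.25 there were 5. No member rose under any of these 7 alternatives. For the pathway genes, 47 fell and 17 rose; the rising count was 11 at a threshold of 0.01, Holm adjustment gave 22 falling and 4 rising, and the null of 0.25 gave 13 and 2, all by construction stricter. Of the 6 peaks on members, 6 remained at a false discovery rate of at most 0.01 and with the midpoint inside the gene span, and 5 at a fold enrichment of at least 2, which leaves out that of Atf4. No paired analysis was possible because the files hold no values per library, and for the same reason no library could be left out. The depth of the libraries is unknown, and of the members and named pathway genes the deposited errors of Cebpb, Cebpd, Ndrg1, Gdf15 and Gatsl3 allow the least.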

Other observations

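Peaks on the tRNA synthetase genes, looked at after their values were seen, all had a negative change: 10 of 10 peaks on 9 of the 20 genes, between -1.20 and -0.30 in the authors' deposited table. Of all genes with an adjusted p, 14.8% carried a differential peak, and 19.3% of the 9453 genes at or above the lowest member mean. The synthetase genes, with means from 3214 to 29356, were not matched to these genes in mean. Among all listed peaks 53.1% were negative, and among the 334 with a fold enrichment under 2, 71.0%. The synthetase peaks had fold enrichments between 1.32 and 5.96, with 5 of 10 under 2. In input, 5 of these 9 genes fell, 1 rose and 3 did not pass. Yars had the most negative change, -1.20 at a fold enrichment of 5.64, and Sars one of -0.71 at 1.45 in the authors' deposited table.

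Cebpb belongs to a small set of genes with unusually wide input errors. Of 11134 genes whose mean reached 100, 88 (0.790%) had an SE at least 2 times the median of genes nearest in mean. Among them are Jund (0.55 ± 0.25), Gdf15 (0.32 ± 0.34) and Junb in the authors' deposited table, named after the set was seen. Differential peaks were listed on 22 of the 88 (25.0%), against 16.9% of the 11134. The share with a peak was higher, 19.3%, among the 9453 genes with a mean at or above that of Cebpb. The 88 were not matched to other genes in mean, so 16.9% is not a like-for-like share. Of their 25 peaks 21 were negative (84.0%), against 53.1% of the whole list. Cebpb (-2.79), Jund (-1.54) and Gdf15 (-0.97) each had a negative-change peak in the authors' deposited table.

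The composite element TGATGNAA was also counted in the promoter windows of the pathway lists, and 17 of 116 windows held it. It lay in 3.97% of all RefSeq windows and in 2.26% of the windows of genes with an adjusted p. The 116 windows include genes without an adjusted p, among them Fgf21 and Vldlr, which hold it. Of the amino acid synthesis genes, 3 of 13 windows held it, those of Got1, Pck2 and Pycr1, which all fell. Most windows of this list thus have no such match. They come from a list of 14 genes that includes Cbs, and were not matched gene by gene to the 13 that fell. The tRNA synthetase genes Aars, Gars, Iars, Tars and Yars hold it too, and of these Gars and Yars fell, Aars rose, and Iars and Tars did not pass.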
